A study of Saccharomyces cerevisiae with 2 samples.

Results

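PHO5 and PHO3 are neighbouring acid phosphatase genes of the budding yeast Saccharomyces cerevisiae. They were taken as 2 members by name, of 6002 nuclear protein-coding genes in the RefSeq gene table for assembly R64. Nucleosomal DNA was examined in a 12 kb window around them, on chromosome 2 from 424001 to 436000 (sacCer1, positions as deposited). The window is 1 of 996 windows of that length in the nuclear genome. Both genes lie on the minus strand, so their promoters are at higher coordinates than their coding regions. The coding region of PHO3 was taken as 427695 to 429098 and that of PHO5 as 429548 to 430951, each 1404 bp, and the PHO5 promoter as 430952 to 431600, or 649 bp. These borders are approximate, to within about 50 bp, and every region was also measured with its borders moved by that distance in either direction.

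There were 2 groups of 1 library each. Starvation cells were in log phase, spent 3 hours without phosphate and then 80 minutes in medium with 0 mM phosphate. High phosphate cells had the same 3 hours without phosphate and then 80 minutes at 10 mM, so they were cells returned to phosphate and not cells that never lacked it. The 0 and 10 mM media were assigned from the titles, low phosphate starvation and high phosphate normal. Both groups carried PHO4-MYC::TRP1 together with CBF1-3HA::LEU2, alleles in which the DNA-binding proteins Pho4 and Cbf1 carry tags. Chromatin was cut with micrococcal nuclease, which digests the linker DNA between nucleosomes, and gel-purified mononucleosomal DNA was sequenced. With 1 library per condition there is no replicate check, conditions and libraries cannot be told apart, and all intervals below cover counting error only. No RNA was analysed here, so the expression of PHO5 in these cultures is not known from these data.

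PHO5 encodes the main phosphate-repressible acid phosphatase, a secreted enzyme that frees phosphate from organic compounds outside the plasma membrane. PHO3 encodes a closely similar acid phosphatase that is known as constitutive with respect to phosphate and repressed by thiamine. When phosphate is plentiful, the Pho80-Pho85 kinase keeps Pho4 out of the nucleus. When it is scarce, Pho4 enters and binds the PHO5 promoter with Pho2. That promoter is a textbook model of chromatin remodelling: positioned nucleosomes cover it in the repressed state, apart from a short accessible stretch that holds one Pho4 site, and they are displaced on induction.

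The starvation library held 1001229 nuclear tags and the high phosphate library 2598022, which is 83.2 and 216 tags per kb. In the window they held 1014 and 2748 tags, or 1.02 and 1.06 times their library means. Counts were scaled to the nuclear totals. For the whole window the log2 ratio, starvation over high phosphate, was −0.06 (95% exact interval −0.17 to 0.04), so the differences described here are between places within the locus. The files hold at most 1 tag per position and strand. Across the window 4.22% of these combinations were filled under starvation and 11.4% under high phosphate. Ratios and contrasts of regions were also computed with a correction for this. Values for bins, dyads and dyad heights carry no such correction. Because PHO5 and PHO3 are alike in sequence, tags could fail to be placed uniquely. Before tags were moved, each 100 bp bin of the PHO3 coding region held at least 13 high phosphate tags and each bin of the PHO5 coding region at least 3. The longest stretch without a tag in either library was 85 bp in PHO3 coding DNA and 90 bp in PHO5 coding DNA, against 65 bp in the left flank and 58 bp in the right flank.

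**Figure D1:**
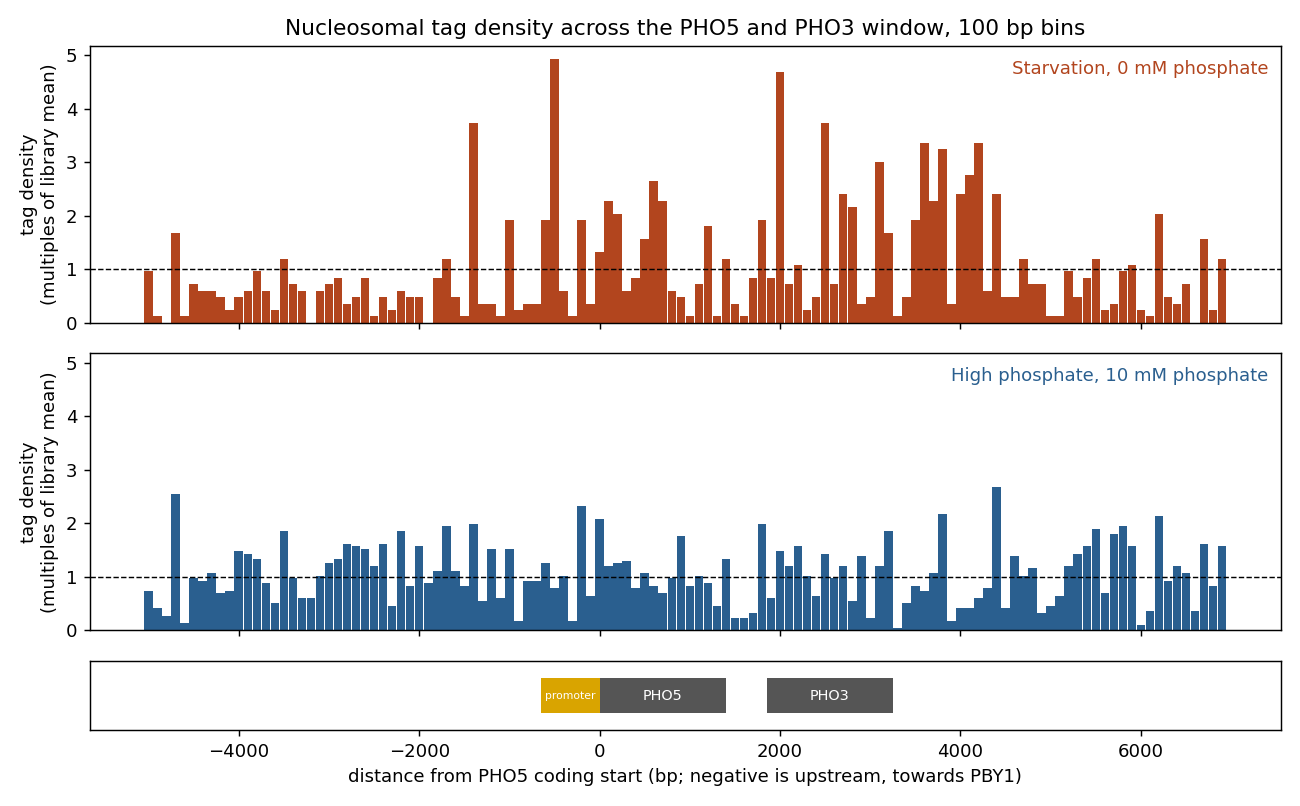
Tag density in 100 bp bins (y axis, multiples of the library mean) against distance from the PHO5 coding start (x axis, bp, negative upstream) for starvation above and high phosphate in the middle, with the coding regions and promoter drawn to scale underneath. Starvation shows few tall bins, the tallest at 4.93 times the mean in the distal promoter, and low density in most bins farther upstream, while high phosphate is more even.

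Relative to its library, the PHO5 promoter as a whole did not have a lower tag density in starvation. Its tags numbered 93 under starvation and 169 under high phosphate, which is 1.72 times the library mean (95% Poisson interval 1.39 to 2.11) and 1.21 times (1.03 to 1.40). The log2 ratio was 0.51 (0.13 to 0.89), or 1.43-fold higher in starvation. Among 17718 nuclear windows of 649 bp that held 20 tags or more, starvation was 2-fold lower or beyond in 13.8% and 2-fold higher or beyond in 8.16%, and the promoter was neither. A ratio as high as that of the promoter or higher was found in 19.9% of them, so the value is not unusual for these libraries. Tag density in a culture cannot tell apart a nucleosome carried by more cells from one recovered better in the preparation.

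The coding regions were also at or above the library means. PHO5 coding DNA held 142 tags in starvation and 319 in high phosphate, with a log2 ratio of 0.21 and an interval that included 0 (−0.09 to 0.50). PHO3 coding DNA held 189 tags in starvation and 332 in high phosphate, with a log2 ratio of 0.56 (0.30 to 0.82). Among 8270 windows of 1404 bp, 5.89% were at least 2-fold lower and 5.6% at least 2-fold higher, and neither gene was in these classes. Values as high as that of PHO3 or higher were found in 15.6% of the windows. The difference between the genes, PHO3 over PHO5, was 0.35 on the log2 scale, with an interval from −0.04 to 0.75. The DNA between them, which includes the PHO3 promoter, was the sparsest region in high phosphate. It held 29 tags in starvation and 63 in high phosphate, or 0.78 and 0.65 times the library means, and its log2 ratio of 0.26 had an interval from −0.43 to 0.91.

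Set against the coding regions within the same library, a comparison that does not depend on scaling, the promoter differed between the 2 conditions by less than the counting error. Its density was 1.22 times that of both coding regions together in starvation (95% exact interval 0.955 to 1.53) and 1.12 times in high phosphate (0.943 to 1.33). The ratio of these ratios was 1.08, or 0.11 on the log2 scale, with an interval from −0.32 to 0.54. Against PHO5 coding DNA alone the log2 value was 0.31 (−0.18 to 0.79) and against PHO3 coding DNA alone −0.05 (−0.52 to 0.41). These intervals include 0, which does not show that promoter and coding DNA behaved alike. Against the rest of the window the value was 0.62 (0.23 to 1.01), and that rest includes the flank upstream of the promoter, where starvation was low.

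**Figure D2:**
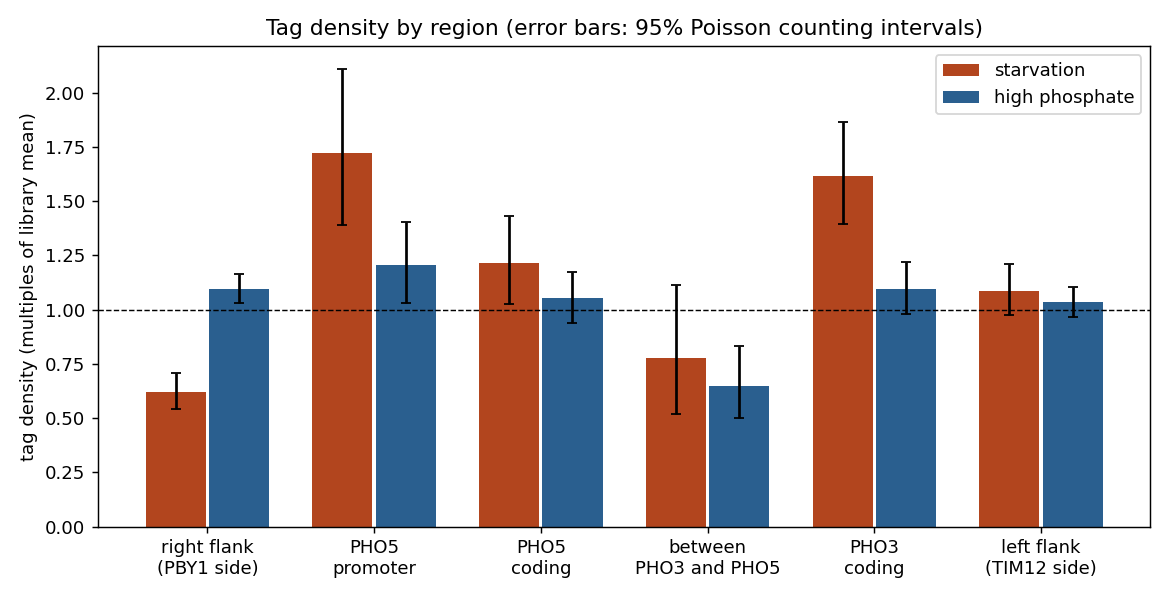
Tag density (y axis, multiples of the library mean) in the 6 regions of the window, with starvation left of high phosphate in each pair and 95% Poisson counting intervals. The PHO5 promoter and PHO3 coding DNA stand higher in starvation, at 1.72 and 1.62 times the mean, and the right flank lower, at 0.62 times.

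Within the promoter, tags were distributed differently in the 2 libraries. The promoter was divided into 4 tiles of equal length, counted outwards from the coding start. The first tile, 1 to 162 bp upstream, held 16 tags in starvation and 54 in high phosphate. The second, 163 to 324 bp upstream, held 15 and 49. The third, 325 to 487 bp upstream, held 18 tags in starvation and 33 in high phosphate. The fourth, 488 to 649 bp upstream, held 44 and 33. High phosphate tags were thus densest near the gene, and starvation tags were densest at the far end. The fourth tile stood at 3.26 times the library mean in starvation and 0.943 times in high phosphate. Its log2 ratio was 1.79, with a 95% exact interval from 1.11 to 2.49. Of 66039 nuclear windows of 162 bp, 14% were at least 2-fold higher in starvation and 28.6% at least 2-fold lower. The fourth tile was the 1 tile of 4 past 2-fold, and a ratio as high or higher was found in 3.52% of windows. That share is for single windows and does not allow for taking the highest of 4 tiles. With all borders moved 50 bp to higher coordinates the fourth tile stood at 0.47 and the third at 1.45, so the place of the excess within the outer tiles depends on the borders. The first 3 tiles had log2 ratios of −0.38, −0.33 and 0.50, with intervals that included 0.

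Taken as a proximal part (1 to 324 bp upstream) and a distal part (325 to 649 bp), a division chosen after the values were seen, the promoter held 31 proximal tags in starvation and 103 in high phosphate, and 62 distal tags in starvation and 66 in high phosphate. Relative to both coding regions, the proximal density was 0.812 (0.543 to 1.17) under starvation and 1.37 (lower bound 1.103, upper bound 1.69) under high phosphate. The log2 ratio of these was −0.76 (−1.42 to −0.13). The distal density relative to coding was 1.62 (1.21 to 2.13) in starvation and 0.876 (0.669 to 1.13) in high phosphate, and these differed by 0.89 on the log2 scale (0.32 to 1.45). The contrast of the distal with the proximal part was 1.64 on the log2 scale (0.83 to 2.46), or 3.12-fold. Because the division followed the values, the intervals of these contrasts do not test a difference. No share of nuclear windows was computed for parts of this length. The lower proximal value was uneven between the strands: relative to coding it was −1.66 with plus-strand tags and −0.22 with minus-strand tags. Scaled to the nuclear total, the proximal part had a log2 ratio of −0.36 with an interval that included 0, and it turned to 0.07 with minus-strand tags. The distal part was higher on both strands, at 1.49 with plus-strand and 0.98 with minus-strand tags.

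**Figure D3:**
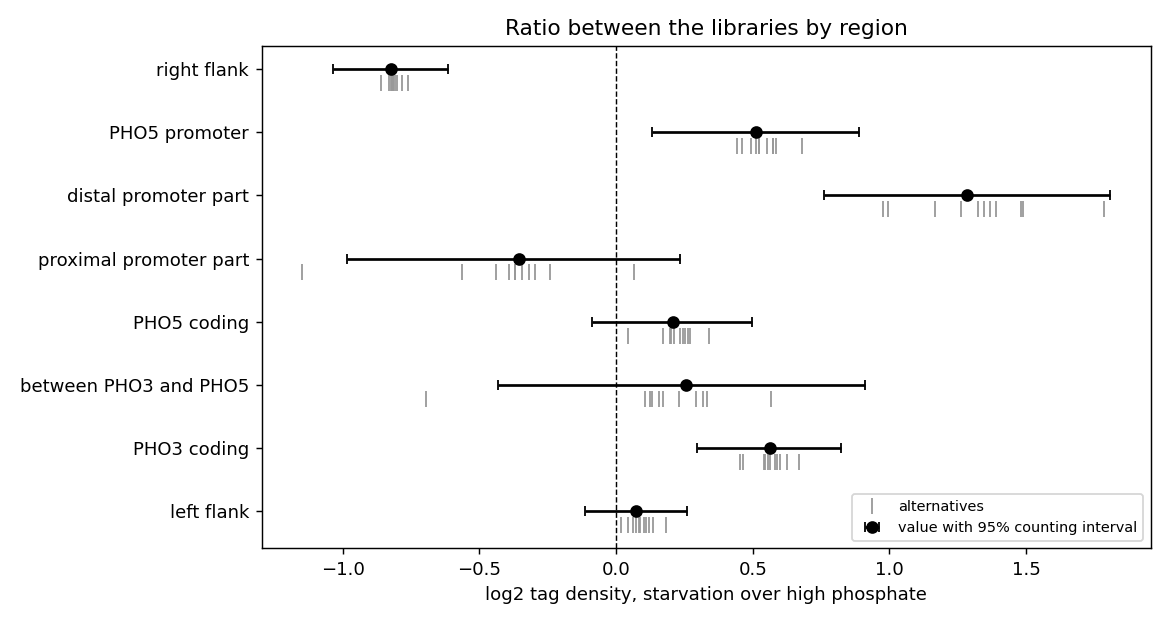
Log2 tag density, starvation over high phosphate (x axis), for the regions of the window and the 2 promoter parts (y axis), with 95% exact counting intervals and with each alternative processing as a grey tick. The distal promoter part at 1.29 and the right flank at −0.82 stand clear of 0 under every alternative tried, while the ticks of the proximal part cross 0. The promoter parts were divided after the values were seen, so their intervals do not test a difference. All alternatives use the same 2 libraries.

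The 100 bp bins show where the promoter tags lay. Tag numbers are not scaled for the depth of the libraries, and log2 ratios are. From 50 to 149 bp upstream of the coding start there were 3 tags in starvation and 14 in high phosphate, and from 150 to 249 bp there were 16 and 50. From 250 to 349 bp both libraries were nearly empty, with 1 and 4 tags. This sparse stretch was shared by the conditions. From 350 to 449 bp upstream there were 5 tags in starvation and 22 in high phosphate (log2 ratio −0.76, interval −2.52 to 0.67). The next bin, from 450 to 549 bp (431401 to 431500), was higher in starvation, with 41 and 17 tags (log2 ratio 2.65, interval 1.80 to 3.55). From 550 to 649 bp there were 16 tags in starvation and 27 in high phosphate (log2 ratio 0.62, interval −0.37 to 1.56). Over all nuclear 100 bp bins that held 20 tags or more, starvation was 2-fold higher or beyond in 16.6%, and in the promoter this was 1 of the 4 bins with enough tags.

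Dyads, the nucleosome midpoints, were called as maxima of the smoothed tag density. Near the gene they lay within 5 bp of each other in the 2 libraries. The first promoter dyad lay 21 bp upstream of the coding start in starvation and 20 bp upstream in high phosphate, with heights of 2.44 and 3.20 times the library mean. The second lay 189 bp upstream in starvation and 194 bp upstream in high phosphate, with heights of 2.50 and 3.05. Both nucleosomes were therefore called in starvation, also on each strand alone. Starvation heights were 1.43 and 1.30 with plus-strand tags and 3.62 and 3.71 with minus-strand tags. High phosphate heights were 2.89 and 3.10 with plus-strand tags and 3.51 and 3.24 with minus-strand tags. Heights were thus lower in starvation with both strands together but not with minus-strand tags alone. No interval was computed for heights. Tag counts in the 100 bp bins around both dyads had log2 ratios with intervals that included 0. The bin at 430901 to 431000, with 11 and 45 tags, had a log2 ratio of −0.66 (−1.76 to 0.32). The bin at 431101 to 431200, with 16 and 50 tags, had one of −0.27 (−1.18 to 0.57). The proximal part that holds both dyads, divided after the values were seen, stood at −0.76 relative to both coding regions (−1.42 to −0.13). With minus-strand tags alone this contrast was −0.22. Scaled to the nuclear total, the part had a log2 ratio of −0.36 (−0.99 to 0.23). Next to the 2 dyads came the sparse stretch, and the distance to the following dyad measured 306 bp in the starvation map and 218 bp in the high phosphate map.

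Beyond the sparse stretch the dyads differed. With both strands together, starvation had a single dyad, 495 bp upstream, at 431446, and its height of 5.84 times the library mean was the greatest in the 12 kb window. Starvation dyads outside the promoter, at 432339 and 428960, were nearly as tall, at 5.56 and 5.49. High phosphate had a density of 0.643 times its mean at 431446. It had dyads instead at 412 bp, with a height of 1.52, and at 644 bp, with a height of 1.68, where starvation stood at 0.755 and 0.470. The nearest high phosphate dyad was thus 83 bp from the starvation dyad. Called on each strand alone, this starvation dyad lay at 494 bp with plus-strand and 495 bp with minus-strand tags, and the high phosphate dyad at 411 and 412 bp. Farther out, minus-strand tags alone gave a starvation dyad at 619 bp with a height of 1.23 and a high phosphate dyad at 649 bp with a height of 1.86. Plus-strand tags gave neither inside the promoter.

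**Figure D4:**
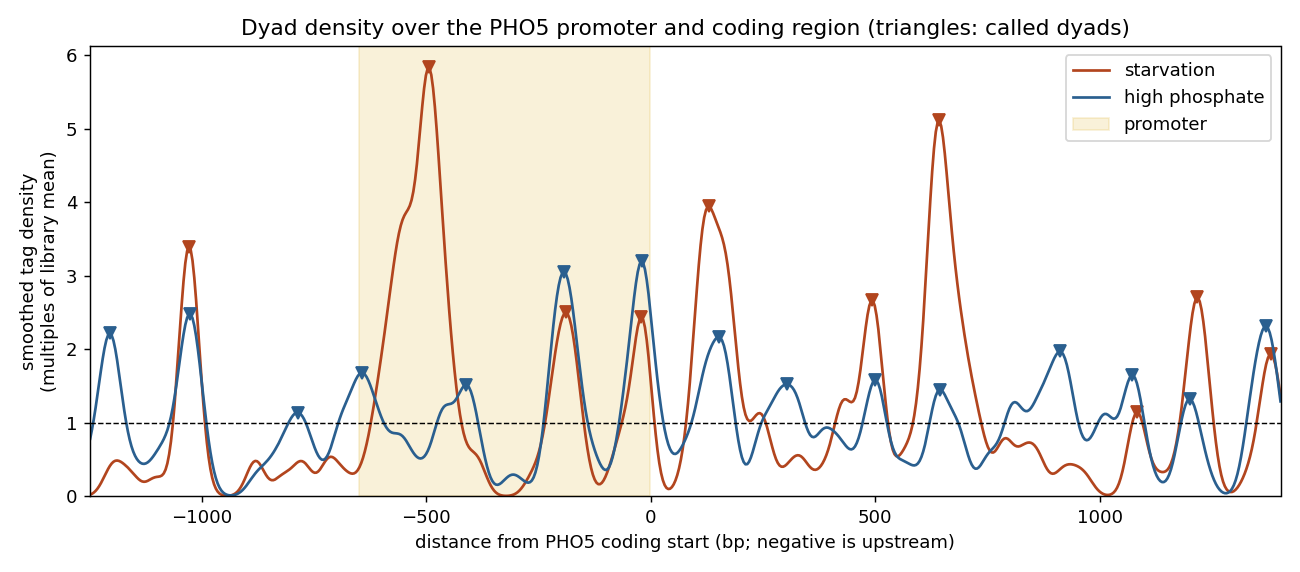
Smoothed tag density (y axis, multiples of the library mean) over the PHO5 promoter (shaded) and coding region against distance from the coding start (x axis, bp, negative upstream), with triangles at called dyads. The peaks 20 to 21 and 189 to 194 bp upstream coincide in the 2 libraries, and the starvation peak 495 bp upstream has its nearest high phosphate dyad 83 bp away.

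Inside the genes the starvation library, which held fewer tags per kb, gave fewer and taller dyads. Heights were not recomputed at equal depth, and the part of depth in them was not tested. In the flanks the median heights were not taller in starvation. They were 2.27 in starvation and 2.37 in high phosphate in the left flank, and 1.94 and 1.97 in the right flank. The tallest dyad of each flank was taller in starvation, as in the genes. It stood at 5.02 against 3.38 in the left flank and 5.56 against 3.27 in the right flank. PHO5 coding DNA gave 6 dyads under starvation and 8 under high phosphate, with median heights of 2.69 and 1.62 times the library mean, and 5 starvation dyads lay within 20 bp of a high phosphate dyad. The tallest in starvation stood 642 bp inside the gene at 5.11 times the mean, against 1.45 at the matching high phosphate dyad at 645 bp. Another lay 129 bp inside the gene in starvation and 151 bp in high phosphate, just beyond the 20 bp limit. High phosphate dyads 303 and 912 bp inside the gene had their nearest starvation dyads 174 and 172 bp away, and starvation stood there at 0.435 and 0.369 times its mean. The bins at 430201 to 430300 and 430301 to 430400 held 19 and 22 tags in starvation and 15 and 18 in high phosphate. The bin at 430001 to 430100 held 4 and 38. Of the 13 PHO5 coding bins that held 20 tags or more, 3 were at least 2-fold higher and 2 at least 2-fold lower in starvation, where 16.6% and 29.3% of all nuclear bins were. These bins are neighbours along the same molecules and are not replicates.

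PHO3 coding DNA likewise gave fewer and taller dyads in starvation. It had 6 dyads in starvation and 8 in high phosphate, with median heights of 3.85 and 1.70, and 5 starvation dyads were matched within 20 bp. The tallest in starvation lay at 428960, close to the PHO3 coding start, at 5.49 times the mean, against 1.88 at its high phosphate partner 8 bp away. A high phosphate dyad at 428607 with a height of 1.51 had almost no starvation density, at 0.020 times the mean. The bin at 428901 to 429000 held 39 tags under starvation and 32 under high phosphate (log2 ratio 1.66, interval 0.95 to 2.38), and the bin at 428001 to 428100 held 3 and 30. Of 12 PHO3 coding bins with enough tags, 4 were at least 2-fold higher and 2 at least 2-fold lower, against 16.6% and 29.3% of all nuclear bins. Just upstream of PHO3 both libraries had a dyad, at 429119 in starvation and 429125 in high phosphate, with heights of 3.23 and 2.96. The next dyads lay 451 bp away in starvation and 456 bp away in high phosphate, so a wide gap without a called nucleosome lay upstream of PHO3 in both.

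Over the whole window starvation had 42 dyads and high phosphate 58, also 58 after 1 random thinning to the nuclear total of the starvation library. The strands were offset by 155 bp in starvation and by 142 bp in high phosphate over the genome, and the part of this difference in the heights was not tested. Of the starvation dyads 78.6% (95% exact interval 63.2% to 89.7%) lay within 20 bp of a high phosphate dyad, against 74.9% of 41807 starvation dyads in the nuclear genome. Of the high phosphate dyads 56.9% (43.2% to 69.8%) were matched, against 58.1% of 53837. The locus was thus close to the genome in this respect. Between the strands of the same library, 42.9% of plus-strand dyads were matched in starvation and 45.5% in high phosphate, at fewer tags per map. Variation between 100 bp bins beyond counting error, as a coefficient of variation, was 0.931 in starvation and 0.492 in high phosphate, and over all nuclear bins it was 1.13 and 0.569. More uneven density in starvation was therefore found across the genome as well as at PHO5 and PHO3.

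The flank upstream of the PHO5 promoter differed most between the libraries among the regions outside the promoter tiles. In the RefSeq gene table for R64 the next genes on that side are PBY1 and RXT2. From 431601 to 436000 there were 227 tags in starvation and 1041 in high phosphate, or 0.620 and 1.096 times the library means. The log2 ratio was −0.82 (−1.04 to −0.61), and 2.95% of 2675 nuclear windows of that length were as low or lower. At least 2-fold lower were 0.598% of these windows and at least 2-fold higher 1.94%, and the flank was in neither class. The 4 bins of 1 kb from 432001 to 436000 were all lower in starvation, with log2 ratios of −0.66, −1.36, −0.83 and −0.62. Among all 1 kb bins 9.4% were at least 2-fold lower and 6.44% at least 2-fold higher. In the window 0 of 12 were in the higher class and 2 of 12 in the lower class, at 425001 to 426000 and 433001 to 434000. In this flank 12 of 30 bins of 100 bp were at least 2-fold lower in starvation and 0 were at least 2-fold higher, against 29.3% and 16.6% of all bins. All 10 starvation dyads there were matched within 20 bp, and high phosphate had 22. The log2 ratio of the promoter was 1.34 above that of this flank (0.90 to 1.77). For both coding regions together it was 1.22 above (0.93 to 1.51). This flank, the region with the lowest ratio, was not a planned reference, so these intervals do not test a difference.

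On the other side of PHO3, towards TIM12, density was split. From 424001 to 427694 the log2 ratio was 0.07 (−0.11 to 0.26), with 334 tags in starvation and 824 in high phosphate. The bins from 424001 and from 425001 were lower in starvation, at −0.55 and −1.06, and the bin from 426001 was higher, at 0.72. The bin at 427001 to 428000, which reaches into PHO3, counted 141 tags under starvation and 191 under high phosphate and gave the highest 1 kb ratio of the window, 0.94 (0.61 to 1.26). In 1 kb bins, density higher in starvation thus ran without a break from 426001 to 432000, across both genes and the promoter, although the bins from 429001 and from 430001 stood at 0.02 and 0.30 with intervals that included 0.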

How the data were processed

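Per the labels' protocols, mononucleosomal DNA was sequenced on an Illumina Genome Analyzer and placed on the sacCer1 genome release. For the aligner and the length of reads, nothing is given in the sources used. The deposited files list chromosome, position and strand of uniquely placed tags, and the authors attached no value to them. No position and strand occurred more than once (0 repeated rows). Whether positions start at 0 or 1 is not stated.

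Groups were read from titles. Each tag was shifted 73 bp towards the fragment middle and scaled to nuclear totals. Ratios carry 95% exact conditional binomial intervals, contrasts exact conditional odds-ratio intervals and densities Poisson intervals. Tags are not independent molecules. Background windows were tiled over the 16 nuclear chromosomes and needed at least 20 tags over both libraries. Dyads were maxima above the library mean after Gaussian smoothing (SD 20 bp), kept when 120 bp or more from a taller one. Offsets between the strands, 155 bp under starvation and 142 bp under high phosphate, were halved for an alternative shift. Functions were tested on simulated data. Only PHO5 and PHO3 were named by rule. Members, regions and settings were chosen with earlier results of these data known. Alternatives changed tag movement, borders, scaling, depth, strand, filled positions, smoothing and matching distance. Searches of promoter motifs and protein alignments were not analysed here. Python 3.11.15, numpy 2.4.6, scipy 1.17.1, pandas 2.3.3 and matplotlib 3.10.9 were used.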

Additional observations from a re-analysis of the deposited data

How the results depend on the processing

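No paired analysis was possible because there was only 1 library per condition, which also left no replicate to omit. Of 245 recomputed values for 27 results, 237 stayed within the counting interval of the reported value (within 1.5 times for numbers of dyads) and 8 moved outside it, 1 of them through a single random draw. Borders moved 50 bp to lower coordinates took the third promoter tile to −1.21, and borders moved 50 bp to higher coordinates took it to 1.45 and the fourth tile to 0.47, against 0.50 and 1.79. The tallest starvation dyad lies close to the border of these tiles. The distal promoter part, which holds both, ranged from 0.98 to 1.78 over these alternatives. Plus-strand tags alone gave −0.70 between PHO3 and PHO5, −1.15 in the proximal promoter part, −1.66 for that part relative to the coding regions and 2.64 for the distal over the proximal part. The cause was not tested. Thinning the high phosphate library to the starvation total, by the 1 draw used, gave 1.46 for the distal part relative to the coding regions, against 0.89. That was the highest of 20 draws, added after the data were seen; their median was 0.97, the lowest 0.34, and only this draw lay outside the counting interval. Over the draws the whole promoter lay between 0.35 and 0.78, its contrast with both coding regions between −0.16 and 0.35 and the distal part between 0.78 and 1.78. With the single draw, the whole promoter ranged from 0.44 to 0.68, its contrast with both coding regions from 0.06 to 0.35 and the right flank from −0.86 to −0.76. Scaling to chromosome 2 raised each ratio by 0.04 and scaling to the median 10 kb bin by 0.06. A tile holds 15 to 54 tags per library, which makes the tile intervals wide.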
